A study of Mus musculus with 21 samples.

Results

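Samd3, Cobl, Moxd1 and Bicc1 are 4 genes that are seldom used as notochord markers and whose transcripts were far more abundant in notochord progenitors (NotoPs) than in mesoderm progenitors (MPs) of the mouse embryo. They were chosen by that ratio, measured in the NotoP and MP libraries of both stages, as 4 of the 23983 genes of the expression table, so the ratio describes how they were chosen and is not a result. Ranked by the smaller of their ratios at E8.5 and E9.5, they stood 3rd (Samd3), 5th (Cobl), 8th (Moxd1) and 43rd (Bicc1) among the 314 genes at least 3-fold higher in NotoPs at both stages, which are 1.31% of all genes. Described here are their levels in 9 RNA-seq libraries and whether these were also high in the trunk notochord and reached in culture. The binding sites of the transcription factors T and Foxa2 around the genes are described as well.

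The embryonic cells came from pooled embryos made from F1G4 mouse embryonic stem cells (by tetraploid complementation per the labels, by diploid morula aggregation per the study's text) with 3 reporter transgenes on bacterial artificial chromosomes, T::H2B-Venus, Noto::H2B-mCherry and Foxa2::H2B-mTurquoise. NotoPs (positive for all 3 reporters) and MPs (positive for T, negative for Noto and Foxa2) were sorted from caudal ends at E8.5 and E9.5. Trunk notochord cells (positive for all 3) came from trunks of the same days. By the study's sample list the trunk pools spanned wider ranges of somite number than the NotoP pools. The E8.5 NotoPs were gated as Foxa2-positive, but the E9.5 NotoPs and both trunk pools as Foxa2-high. The part of these differences in the ratios was not tested. The cultured cells came from a second F1G4 line carrying TRE::Foxa2-IRES-EGFP at Rosa26, T::H2B-mCherry-T2A-irTA and Noto::H2B-mTurquoise, in which doxycycline switches on Foxa2 where the T regulatory regions are active. Neuromesodermal progenitor-like cells (NMPdiff, culture day 3) and mesoderm progenitor-like cells (MPdiff, day 4), both sorted T-positive and Noto-negative, had no doxycycline, whereas notochord progenitor-like cells (NotoPdiff, day 4) were sorted T- and Noto-positive after doxycycline. T and Foxa2 ChIP-seq used unsorted doxycycline-treated day 4 cultures enriched for NotoPdiff cells, so these sites are of a mixed culture with induced Foxa2. Each condition has 1 library. No spread between replicates exists, no test was made, and each difference describes these libraries alone.

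The notochord is the rod of axial mesoderm that patterns the neural tube and somites through secreted signals such as Shh, and at these stages it is extended from progenitors in the node and tail end that express T, Foxa2 and Noto. The 4 proteins act in different parts of the cell. Bicc1 (Bicaudal C) is an RNA-binding protein with KH domains and a SAM domain, known from the cilia-driven left-right signalling of the node. Cobl (cordon-bleu) binds actin through WH2 domains and starts new filaments. Moxd1 belongs to the copper-dependent monooxygenases related to dopamine beta-hydroxylase. Samd3 is a little studied protein with a SAM domain.

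Expression is given as FPKM, fragment counts scaled by transcript length and by library size, a scale on which genes of different length can be compared within a library. Of the 23983 genes, 7573 in the NMPdiff library to 13945 in the E8.5 MP library were listed at 0. The E8.5 MP library stood apart, since 155 of the 6593 genes with at least 5 FPKM in each of the other NotoP and MP libraries were listed at 0 there. By the study's sample list it was made from far fewer cells and reads than the other NotoP and MP libraries, and the trunk libraries also from fewer, so the E8.5 ratios to MPs that helped to choose the genes rest on the smallest library. All 10 housekeeping genes were above 0 in each library, with a summed level of 6538 FPKM in the E9.5 trunk and 9059 to 11595 FPKM in the other libraries. The 6 notochord identity genes (Noto, T and Foxa2, whose reporters were sorted on in the embryo, and Shh, Chrd and Nog) summed to 1049 to 1391 FPKM in the 4 NotoP and trunk libraries, to 592 FPKM in NotoPdiff, to 421 FPKM in NMPdiff (406 FPKM of it T), to 29.1 FPKM in MPdiff and to 76.1 and 163 FPKM in MPs at E8.5 and E9.5. Noto itself was at 20.8 to 164 FPKM in the 4 embryonic notochord libraries and was listed at 0 in both MP libraries. In such bulk libraries fewer cells of a type and less RNA per cell cannot be told apart.

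Samd3 had 112 FPKM in E8.5 NotoPs, 133 in E9.5 NotoPs, 123 in the E8.5 trunk notochord and 196 in the E9.5 trunk notochord. It was listed at 0 in both MP libraries. In culture it had 0.172 FPKM in NMPdiff, 22.1 in NotoPdiff and 1.72 in MPdiff. The 4 embryonic notochord libraries thus held the highest values, at percentiles 97.8 to 98.9 of all genes in their library, and NotoPdiff came next at percentile 87.2.

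Cobl, the actin nucleator, had 51.0 FPKM in E8.5 and 46.4 FPKM in E9.5 NotoPs. The trunk notochord had 59.7 FPKM at E8.5 and 115 FPKM at E9.5. It was listed at 0 in E8.5 MPs and had 0.660 FPKM in E9.5 MPs. NotoPdiff had 35.4 FPKM against 1.33 in NMPdiff and 0.958 in MPdiff. As for Samd3, the E9.5 trunk was highest, the other 3 embryonic notochord libraries followed and NotoPdiff came after them.

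Moxd1, the monooxygenase relative, was the least abundant of the 4 in NotoPs, at 22.3 FPKM at E8.5 and 19.2 FPKM a day later. In the trunk notochord it had 35.7 and 33.9 FPKM. Both MP libraries listed it at 0. The cultures had 2.43 FPKM in NMPdiff, 12.7 in NotoPdiff and 0.494 in MPdiff, so that NMPdiff held more of it than MPdiff.

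Bicc1, the RNA-binding protein, had another order. Its highest value was 159 FPKM in E8.5 NotoPs, followed by 106 FPKM in NotoPdiff, 54.2 FPKM in E9.5 NotoPs, 39.0 FPKM in the E8.5 trunk and 13.0 FPKM in the E9.5 trunk. It was not restricted to notochord cells, with 8.99 FPKM in MPdiff, 5.16 FPKM in E9.5 MPs and 4.28 FPKM in NMPdiff, although E8.5 MPs listed it at 0. Since all 4 genes are at 0 in the library with the most zeros, no fold is given against E8.5 MPs. At E9.5, where MPs had values above 0, NotoPs held 70.3 times the FPKM of MPs for Cobl and 10.5 times for Bicc1.

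**Figure D1:**
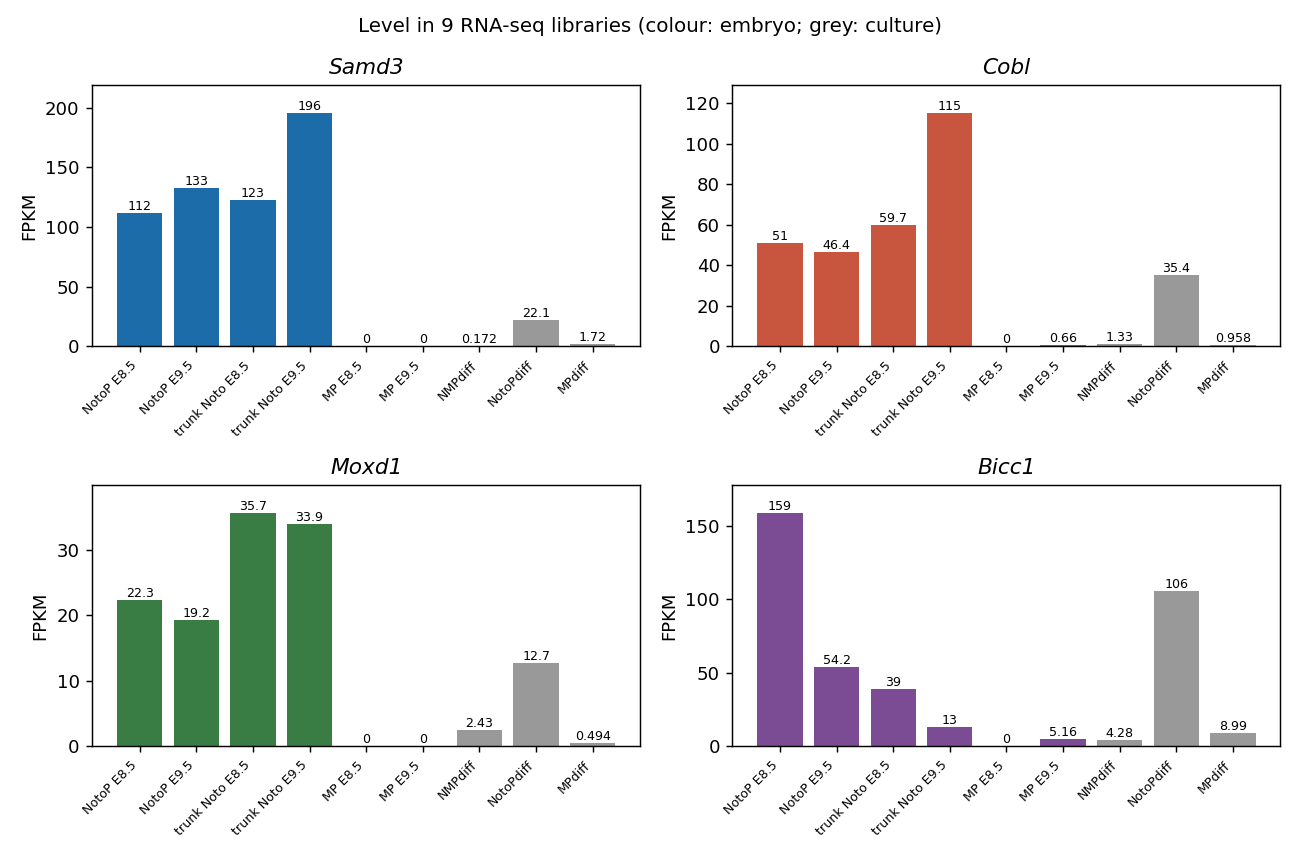
Bars give the FPKM of each gene in each of the 9 RNA-seq libraries, 1 library per bar, coloured for embryonic and grey for cultured cells, and each panel has its own scale from 0. Samd3, Cobl and Moxd1 are highest in a trunk notochord library, whereas Bicc1 is highest in E8.5 NotoPs (159 FPKM) and has 13.0 FPKM in the E9.5 trunk.

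Whether the progenitor level was also held in the trunk was asked by setting the trunk notochord against NotoPs of the same stage. This compares places and does not follow the same cells over time. A gene was counted as kept at 50% or more of the NotoP level on FPKM + 1. By that measure 3 of the 4 genes were kept at E8.5, beside 83.8% of the 7980 genes with at least 5 FPKM in NotoPs. The same 3 were kept at E9.5, beside 80.6% of 8076 genes. Most expressed genes pass this bar, so the count alone says little about the 4. Among those of them that were also 3-fold higher in NotoPs at both stages, kept genes made up 58.4% of 243 (E8.5) and 61.5% of 252 (E9.5). Among 12 established notochord genes, 8 (E8.5) and 9 (E9.5) were kept. The NotoP libraries also chose the genes, so these values are descriptions.

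Samd3 had 110% of its NotoP level in the trunk at E8.5 and 147% at E9.5, log2 ratios of 0.14 and 0.55. Moxd1 had 160% and 177%, log2 ratios of 0.65 and 0.79. Cobl had 117% at E8.5 and 248% a day later. Its E9.5 log2 ratio of 1.29 stood at percentile 96.3 of the genes expressed in NotoPs. The median log2 ratio of those genes was -0.14 at E8.5 and -0.13 at E9.5. The values of the 3 genes therefore lay above the median at each stage, with the widest gap for Cobl at E9.5.

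Bicc1 had 24.5% of its NotoP level in the trunk at E8.5 and 24.0% at E9.5. Its log2 ratios, -2.00 and -1.98, stood at percentiles 5.45 and 7.23 of the expressed genes. It was also lower at the later stage within each cell type, by log2 ratios of -1.54 in NotoPs and -1.51 in the trunk. Bicc1 thus had nearly the same ratio for place at both stages. The like stage ratios follow from this, since they come from the same values. Among the established genes, Noto (18.1% and 12.7% of the NotoP level), Chrd (18.1% at E8.5 and listed at 0 at E9.5) and Mnx1 (36.8% and 35.5%) were also low in the trunk, whereas Shh had 291% and 340%.

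Markers of other cells differed between the same libraries. The 6 mesoderm progenitor markers (such as Tbx6 and Msgn1) reached a sum of 337 FPKM in E8.5 and 272 FPKM in E9.5 NotoPs, beside 215 and 485 FPKM in the MP libraries. At E8.5 Rspo3 (146 against 66.1 FPKM), Hes7 (74.3 against 5.38 FPKM) and Tbx6 were higher in NotoPs than in MPs. Msgn1 (20.0 against 27.5 FPKM), Dll1 and Pcdh8 (1.27 against 20.3 FPKM) were lower. At E9.5 each of the 6 was lower in NotoPs. In the trunk the sum of the 6 was 9.15 and 4.48 FPKM. The trunk libraries listed Tbx6, Msgn1 and Hes7 at 0. The 7 measured gut endoderm markers of 8 listed had sums of 72.9 and 32.5 FPKM in the NotoP libraries and 119 and 160 FPKM in the trunk libraries, with Sox17 at 0 in both trunk libraries and Apoa1, Ttr and Afp at 0 in both NotoP libraries. At E9.5 the trunk sum was mostly Afp (95.7 FPKM), and Epcam was lower in the trunk than in NotoPs (2.31 against 8.12 FPKM). For the 8 neural tube markers the NotoP sums were 39.7 and 31.9 FPKM and the trunk sums 105 and 70.7 FPKM. Irx3 made up most of the trunk sums (64.6 and 53.6 FPKM), while Pax6 and Olig2 were at 0 in both trunk libraries. The 8 somite markers summed to 21.7 and 21.4 FPKM in NotoPs and to 59.4 and 38.8 FPKM in the trunk. At E9.5 Pax1 differed most (13.5 FPKM in the trunk against 0), while Meox1 was lower in the trunk (14.0 against 16.0 FPKM). Blood and endothelial markers summed to at most 2.27 and 3.40 FPKM in any library. The part of these markers in the differences of the 4 genes was not tested.

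**Figure D2:**
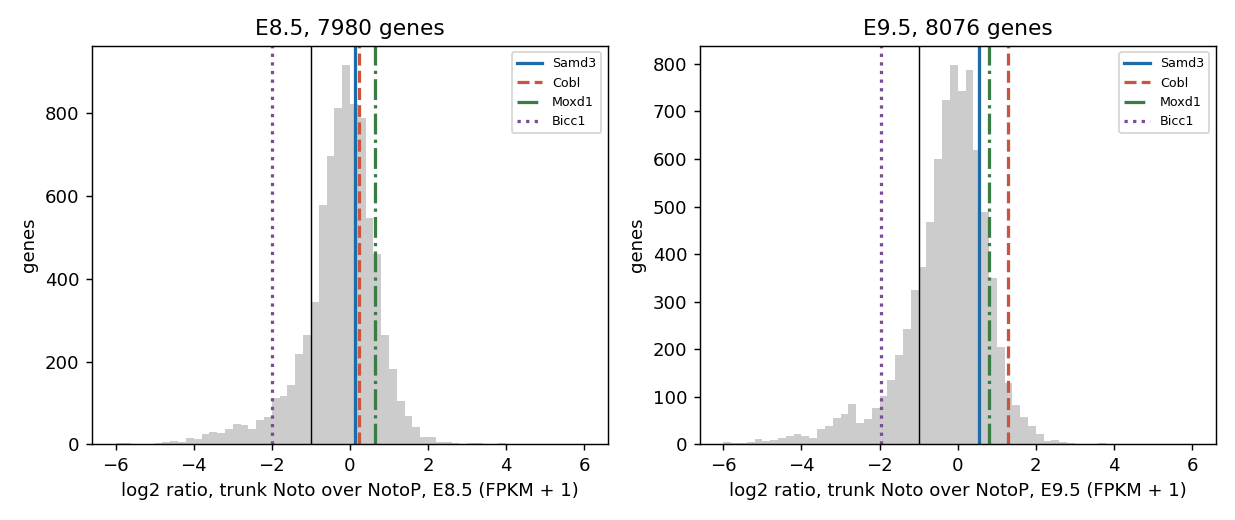
Grey bars count the genes with at least 5 FPKM in NotoPs (7980 at E8.5, 8076 at E9.5) by the log2 ratio of trunk notochord over NotoPs on FPKM + 1, coloured lines mark the 4 genes and the black line marks 50%. Bicc1 lies at -2.00 and -1.98, left of the black line, and the other 3 genes lie between 0.14 and 1.29.

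Against MPs, 3 of the 4 genes were at least 3-fold higher in the trunk notochord at both stages, beside 2.27% of all genes. Among genes 3-fold higher in NotoPs at both stages, with at least 5 FPKM in either library, most passed too. They were 87.4% of 191 at E8.5 and 70.1% of 197 at E9.5, so the count of 3 says little about the 4. The 3 genes were Samd3, Cobl and Moxd1, with 174 times the FPKM of E9.5 MPs for Cobl, while Samd3 and Moxd1 were at 0 in both MP libraries. Bicc1 had 2.52 times the FPKM of MPs at E9.5. The comparison shares the MP libraries with the choice of the genes.

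The values of the cultured libraries did not enter the ratio that chose the genes, although they were known when the genes were picked. All 4 genes were at least 3-fold higher in NotoPdiff than in MPdiff cells on FPKM + 1, beside 1.55% of all genes (372 of 23983) and 34.4% of the 314 genes 3-fold higher in NotoPs at both stages. Cobl had 37.0 times the FPKM of MPdiff, Moxd1 25.8, Samd3 12.9 and Bicc1 11.8 times, an order that rests on MPdiff values near 0, since with 5 added to the FPKM the log2 ratio of Bicc1 (2.99) was above that of Cobl (2.76). On FPKM + 1 the log2 ratios were 4.22 for Cobl, 3.42 for Bicc1, 3.20 for Moxd1 and 3.09 for Samd3, at percentiles 99.4 to 99.8 of the 8779 genes expressed in either culture, whose median was -0.01. Within the NotoP-high genes expressed in these cultures, with a median log2 ratio of 1.67, the 4 stood at percentiles 80.2 to 93.6. The 12 established notochord genes were all past 3-fold, with a median log2 ratio of 4.22.

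Against NMPdiff, the T-positive cells of the preceding day, the 4 genes were again at least 3-fold higher in NotoPdiff, beside 1.31% of all genes (314 of 23983) and 23.2% of the NotoP-high genes. This comparison has NotoPdiff in common with the one above. The log2 ratios on FPKM + 1 were 4.34 for Bicc1, 4.30 for Samd3, 3.97 for Cobl and 2.00 for Moxd1. Moxd1 was closest to the 3-fold bar, NMPdiff holding 2.43 FPKM, and with 5 in place of 1 added to the FPKM its log2 ratio of 1.25 was below the bar. Of all genes, 0.659% (158) were past 3-fold over both references. Culture day also differed between NotoPdiff and NMPdiff, besides doxycycline and the Noto sort. Without doxycycline, MPdiff cells of day 4 had log2 ratios over NMPdiff of 1.21 (Samd3), 0.92 (Bicc1), -0.25 (Cobl) and -1.20 (Moxd1). The part of culture day was not tested. The 7 measured gut endoderm markers summed to 237 FPKM in NotoPdiff, 103 in NMPdiff and 23.1 in MPdiff. In NotoPdiff Cldn6 (126 FPKM), Trh (71.8), Epcam (31.7) and Sox17 (7.46) made up nearly all of it. Apoa1 and Ttr were at 0 there and Afp at 0.233 FPKM. Cldn6 also had 47.0 and 23.9 FPKM in embryonic NotoPs, and the NMPdiff sum was mostly Epcam (81.0 FPKM). The mesoderm progenitor markers summed to 143 FPKM in NotoPdiff, 115 in NMPdiff and 260 in MPdiff. The part of both marker sets in the ratios of the 4 genes was not tested.

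How near the culture came to the embryo differed among the 4. NotoPdiff held 69.6% of the E8.5 and 76.4% of the E9.5 NotoP level for Cobl, 57.0% and 66.2% for Moxd1, and 19.8% and 16.6% for Samd3. For Bicc1, which differed between the NotoP libraries, it held 66.5% of the E8.5 and 195% of the E9.5 level. Samd3, the most abundant of the 4 at E9.5, was thus the furthest from its embryonic level. Of the established genes, Noto (14.8% and 13.7%), Shh (18.8% and 17.0%) and Lmx1a (20.6% and 21.7%) had shares near those of Samd3, and Chrd, like Bicc1, lay between its NotoP levels (76.8% and 269%). Embryonic and cultured libraries were sequenced on different instruments, and platform and origin cannot be told apart in these shares.

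**Figure D3:**
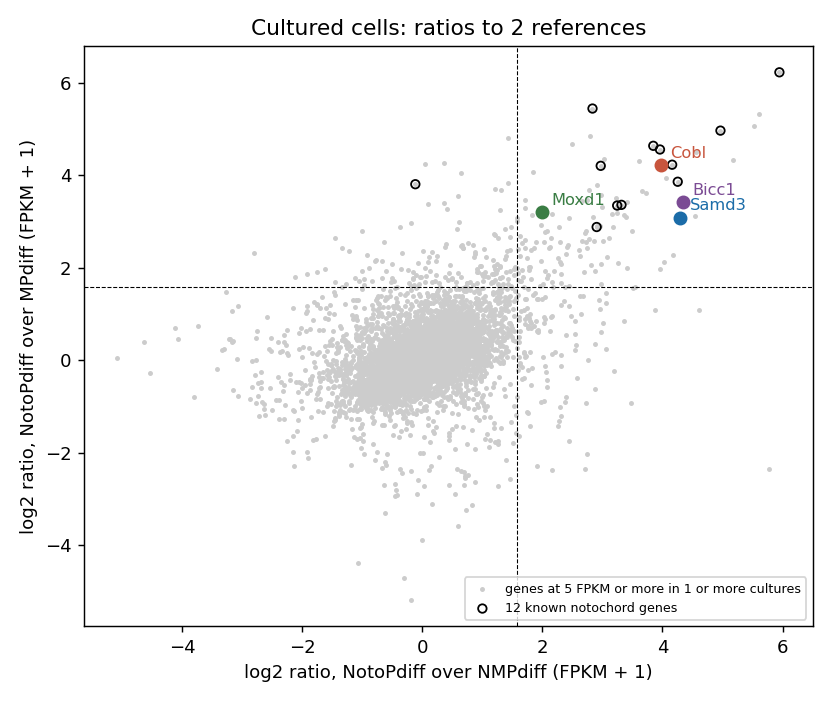
Each point is a gene, placed by its log2 ratio of NotoPdiff over NMPdiff (horizontal) and over MPdiff (vertical) on FPKM + 1, with grey points for genes at 5 FPKM or more in a culture, open circles for 12 established notochord genes and dashed lines at 3-fold. All 4 genes lie past both lines, with Moxd1 nearest to the vertical one at 2.00.

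Over the 9 libraries Samd3, Cobl and Moxd1 varied together, with Pearson correlations of log2(FPKM + 1) of 0.978 for Samd3 and Cobl, 0.981 for Cobl and Moxd1 and 0.959 for Samd3 and Moxd1. Bicc1 had 0.768 to 0.797 with the other 3. These values rest on 9 points, chosen to be high in NotoPs and low in MPs, and have no p. Among 10942 genes with at least 5 FPKM in a library, the 3 most like Samd3 were Gli1, a target and effector of hedgehog signalling, at 0.986, Lmx1a, a LIM homeodomain factor, at 0.985, and Bfar at 0.985. Most like Cobl were Sox9, a transcription factor of cartilage and notochord, at 0.993, Gli1 at 0.985 and Moxd1 at 0.981. Most like Moxd1 were Cobl at 0.981, 4921506M07Rik at 0.981 and Sox9 at 0.979. Among those most like Bicc1 were Plekha8, a lipid transfer protein, at 0.966, and Camk1g, a calcium-dependent kinase, at 0.952. By rank correlation none of the 12 places, 3 for each gene, kept its gene.

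Of 31 relatives and partners of the 4 genes, 1 was at least 3-fold higher in NotoPs at both stages, or 3.23% beside 1.31% of all genes, so the lists are described by their levels alone. Of 11 other Samd genes, 3 reached 5 FPKM in a NotoP library (Samd1, Samd4b and Samd8) and 0 passed 3-fold over MPs at both stages. Of 7 genes of actin nucleators related to Cobl in function or sequence, Spire1 and Jmy reached 5 FPKM in NotoPs and 0 were 3-fold higher there. The closest relative, Cobll1, had at most 0.937 FPKM in NotoPs but 5.67 FPKM in the E8.5 and 16.4 FPKM in the E9.5 trunk notochord, and was listed at 0 in both MP libraries. Of the 3 monooxygenases related to Moxd1, Moxd2 was listed at 0 in all 9 libraries, Dbh had 13.3 FPKM in E9.5 NotoPs and 0.200 FPKM or less elsewhere, and Pam, which amidates peptides, had 10.7 to 20.0 FPKM in the NotoP and trunk libraries, 7.36 FPKM in E9.5 MPs and 10.9 FPKM or more in the cultures.

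Of 10 genes tied to Bicc1 by function, 7 reached 5 FPKM in a NotoP library and 1, Dand5, passed 3-fold over MPs at both stages. Dand5, a Nodal antagonist of the node whose mRNA is a known target of Bicc1, had 9.53 and 5.29 FPKM in NotoPs and was listed at 0 in the trunk and MP libraries of both stages. In culture it had 19.3 FPKM in NotoPdiff, 0.901 in MPdiff and 0.905 in NMPdiff, and it thus had its highest levels in the same 3 libraries as Bicc1. Pkd2, the cation channel of node cilia, was higher in the trunk (39.2 and 54.3 FPKM) than in NotoPs (23.0 and 19.0 FPKM), and had 3.49 and 8.69 FPKM in MPs. Cnot1 and Cnot3, subunits of the deadenylase complex, were at 22.2 FPKM or more in every library.

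On the genome (build GRCm38, mm10) the gene bodies lie at chr10:26229707-26272172 on the plus strand (Samd3), chr11:12236608-12464960 on the minus strand (Cobl), chr10:24223517-24302790 on the plus strand (Moxd1) and chr10:70922832-71159700 on the minus strand (Bicc1). Moxd1 and Samd3 are 1.93 Mb apart. None of their nearest protein-coding neighbours was 3-fold higher in NotoPs at both stages. Next to Samd3, L3mbtl3 had 17.4 to 27.9 FPKM in all 6 embryonic libraries and Gm9767 at most 1.84 FPKM. Next to Cobl, Grb10 had 289 to 592 FPKM in the embryo, MPs included, and Pom121l12 was listed at 0 throughout. Next to Moxd1, Stx7 had 7.61 to 24.6 FPKM in the embryo but was past the 3-fold bar in culture, with 27.4 FPKM in NotoPdiff and 4.96 FPKM in MPdiff, and Ctgf had 22.0 and 22.8 FPKM in the trunk but 3.75 and 3.93 in NotoPs. Next to Bicc1, Tfam had 16.4 to 29.8 FPKM in the 9 libraries and Phyhipl 0.903 to 9.95 FPKM.

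ChIP-seq gave 6875 T peaks and 22684 Foxa2 peaks. A peak was assigned to a gene when its summit lay within 100 kb of the gene's start. All 4 genes had 1 or more T peaks, beside 43.9% of 21755 protein-coding genes and 69.6% of the NotoP-high genes. All 4 had 1 or more Foxa2 peaks, beside 73.2% and 85.3%. A T peak and a Foxa2 peak that overlapped were found at 3 of the 4 (Samd3, Cobl and Bicc1), beside 9.0% of protein-coding genes and 20.6% of the NotoP-high genes. Within 50 kb such a pair remained at 2 of the 4, and in or within 5 kb of the gene body at 1. Among 12 established notochord genes a T summit lay in that window for 11, a Foxa2 summit for 12 and an overlapping pair for 8. Each peak's height is its fold enrichment over the local background of the ChIP library.

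Windows of 151 bases centred on each summit were searched on both strands for AGGTGTGA, the core of a T site, and its first 6 bases AGGTGT (which every longer match also holds), and for the forkhead core sequences TGTTTAC and TGTTTGC. AGGTGTGA occurred in 3.59% of T windows and in 0.538% of windows 10 kb beside them, and TGTTTAC in 12.2% of Foxa2 windows against 2.31% beside them. TGTTTGC occurred in 11.9% against 3.10%. Of T windows, 10.6% held TGTTTAC. Other forms of these cores were not searched, so a window without a match may still hold one. A match describes letters in a window, not a bound site.

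Samd3 had 1 T peak and 4 Foxa2 peaks. The T peak, intergenic and 1.37 kb upstream of the start, had a fold enrichment of 20.2 and ranked 173rd of 6875, and it overlapped a Foxa2 peak of fold enrichment 13.4 whose summit lay 110 bases away. Within 5 kb of the start, 0.634% of protein-coding genes had such a pair. This stretch is printed because it is the site of both factors nearest to any of the 4 starts. It spans the windows of both summits, chr10:26228267-26228527, plus strand, with T core matches in capitals.
Samd3 T and Foxa2: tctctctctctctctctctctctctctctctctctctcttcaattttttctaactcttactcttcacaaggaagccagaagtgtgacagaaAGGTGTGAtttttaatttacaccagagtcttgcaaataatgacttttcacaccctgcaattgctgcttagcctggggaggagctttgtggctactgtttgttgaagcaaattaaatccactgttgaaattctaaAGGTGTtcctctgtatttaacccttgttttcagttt
The 8-base match began within 20 bases of the T summit, and a match to the 6-base core lay in the Foxa2 window. Neither TGTTTAC nor TGTTTGC was found in these letters. They do hold TGTTTGT, which differs from TGTTTGC in its last base and was not searched. The 3 other Foxa2 peaks of Samd3 had fold enrichments of 4.36 to 7.53.

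Cobl had 2 T and 2 Foxa2 peaks, all upstream in the 2.13 Mb that separate it from Pom121l12. The T peak at 25.8 kb was the highest near any of the 4 genes, with a fold enrichment of 22.9 and rank 89 of 6875, and no Foxa2 peak overlapped it. Its window, chr11:12490638-12490788, is printed on the plus strand as the strongest T peak and holds none of the 4 sequences searched.
Cobl T, 25.8 kb upstream: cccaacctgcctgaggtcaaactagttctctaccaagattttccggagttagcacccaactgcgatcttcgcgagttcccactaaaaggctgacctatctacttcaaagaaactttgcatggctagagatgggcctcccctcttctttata
The pair at 64 kb had a Foxa2 peak of fold enrichment 20.2, rank 139 of 22684, and a T peak of fold enrichment 10.0, with summits 359 bases apart. The Foxa2 window, chr11:12529154-12529304, plus strand, is printed for its forkhead cores, in capitals.
Cobl Foxa2, 64 kb upstream: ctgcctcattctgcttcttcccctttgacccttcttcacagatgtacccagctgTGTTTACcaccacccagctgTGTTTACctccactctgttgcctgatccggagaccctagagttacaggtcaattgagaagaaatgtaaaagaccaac
TGTTTAC occurred there 2 times, 1 of them at the summit. The whole 2.13 Mb held 5 T peaks and 7 Foxa2 peaks, or 2.34 and 3.28 per Mb, against 2.52 and 8.32 per Mb over the genome.

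Moxd1 had the most peaks, 4 for T and 6 for Foxa2. As many T peaks or more were found near 0.961% of protein-coding genes, and as many Foxa2 peaks or more near 2.29%. None overlapped between the factors, and the T peaks were of middling height, with fold enrichments of 6.50 to 7.71 beside a median of 7.45 over all T peaks. Of the 4 T peaks, 3 lay in introns of Moxd1, at 1.38, 12.5 and 14.7 kb from the start, and 1 lay in an intron of Stx7, 57.1 kb upstream. The Foxa2 peaks 42.8 and 72.3 kb upstream also lay in introns of Stx7. Like that T peak, they are nearer to the start of Stx7 than to that of Moxd1. TGTTTAC occurred in 3 of these 4 T windows, beside the 10.6% of all T windows, and no Foxa2 peak overlapped them. The intronic T window nearest to the start, chr10:24224824-24224974, plus strand, is printed with its forkhead core in capitals.
Moxd1 T, 1.38 kb downstream: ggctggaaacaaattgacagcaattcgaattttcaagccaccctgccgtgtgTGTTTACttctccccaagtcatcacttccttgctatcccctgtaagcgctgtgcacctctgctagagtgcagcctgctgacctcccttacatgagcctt
The highest Foxa2 peak, 1.46 kb upstream of the start, had a fold enrichment of 16.0 and rank 833 of 22684. Its window, chr10:24221983-24222133, plus strand, holds none of the 4 sequences searched and is printed for its run of CA. Like the Samd3 stretch, the window holds TGTTTGT, which was not searched.
Moxd1 Foxa2, 1.46 kb upstream: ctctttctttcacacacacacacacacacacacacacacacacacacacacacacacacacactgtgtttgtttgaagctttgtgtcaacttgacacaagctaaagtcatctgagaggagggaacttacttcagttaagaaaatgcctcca

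Bicc1 had 2 T and 5 Foxa2 peaks, and both T peaks overlapped a Foxa2 peak. Overlapping pairs in such number were found near 0.781% of protein-coding genes. At 37.8 kb upstream the T and Foxa2 fold enrichments were 4.95 and 12.3, with summits 16 bases apart, and at 59.8 kb upstream 10.6 and 12.8, with summits 77 bases apart. The second pair lies nearer to the start of Tfam than to that of Bicc1. Both stretches are printed as the windows of both summits joined, chr10:71197432-71197598 and chr10:71219454-71219681 on the plus strand, with forkhead cores in capitals.
Bicc1 T and Foxa2, 37.8 kb upstream: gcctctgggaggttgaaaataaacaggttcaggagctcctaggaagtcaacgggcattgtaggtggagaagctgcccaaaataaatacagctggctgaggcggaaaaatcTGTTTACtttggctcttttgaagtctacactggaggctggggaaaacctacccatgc
Bicc1 T and Foxa2, 59.8 kb upstream: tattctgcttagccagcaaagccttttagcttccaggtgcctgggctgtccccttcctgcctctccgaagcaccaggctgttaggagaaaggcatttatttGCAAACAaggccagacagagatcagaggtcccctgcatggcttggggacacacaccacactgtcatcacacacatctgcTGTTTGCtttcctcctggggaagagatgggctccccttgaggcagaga
Of the sequences searched, the first holds 1 forkhead core and the second holds 2, and neither holds a T core.

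Over the 4 genes, 1 of the 9 T windows held a T core and 5 held a forkhead core, beside 14.9% and 18.7% of all T windows. Of the 17 Foxa2 windows, 5 held a forkhead core and 1 a T core, near the 22.6% and 10.9% of all Foxa2 windows. What many of the Foxa2 windows held was a run of CA or TG, a measure taken up after the sequences had been seen. Counting the bases in stretches of 6 or more in which C and A, or T and G, alternate, at least 20% of the window was covered in 8 of the 17 Foxa2 windows and in 0 of the 9 T windows. The 8 were 4 of Moxd1, 2 of Samd3 and 2 of Bicc1, and the highest Foxa2 peak of Moxd1 was among them with 35.1% of its window. In the whole Foxa2 list 30.2% of windows were of this kind, against 1.82% of windows 10 kb beside them, and in the T list 0.408% against 2.11%. Among the 1000 Foxa2 peaks of highest fold enrichment the share was 42.1%. The median fold enrichment was 7.93 for Foxa2 peaks of this kind and 6.89 for the others. Of Foxa2 peaks that overlapped a T peak 3.03% were of this kind, and of the 4 such peaks near the genes 0 were. Without these windows 9 of the 17 Foxa2 peaks remained, 2 each for Samd3, Cobl and Moxd1 and 3 for Bicc1, so that all 4 genes still had one, beside 63.2% of protein-coding genes. Among the 9 were windows of Bicc1 (17.9%), Cobl (17.2%) and Moxd1 (14.6%) not far under the 20% cutoff, so the counts depend on it.

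**Figure D4:**
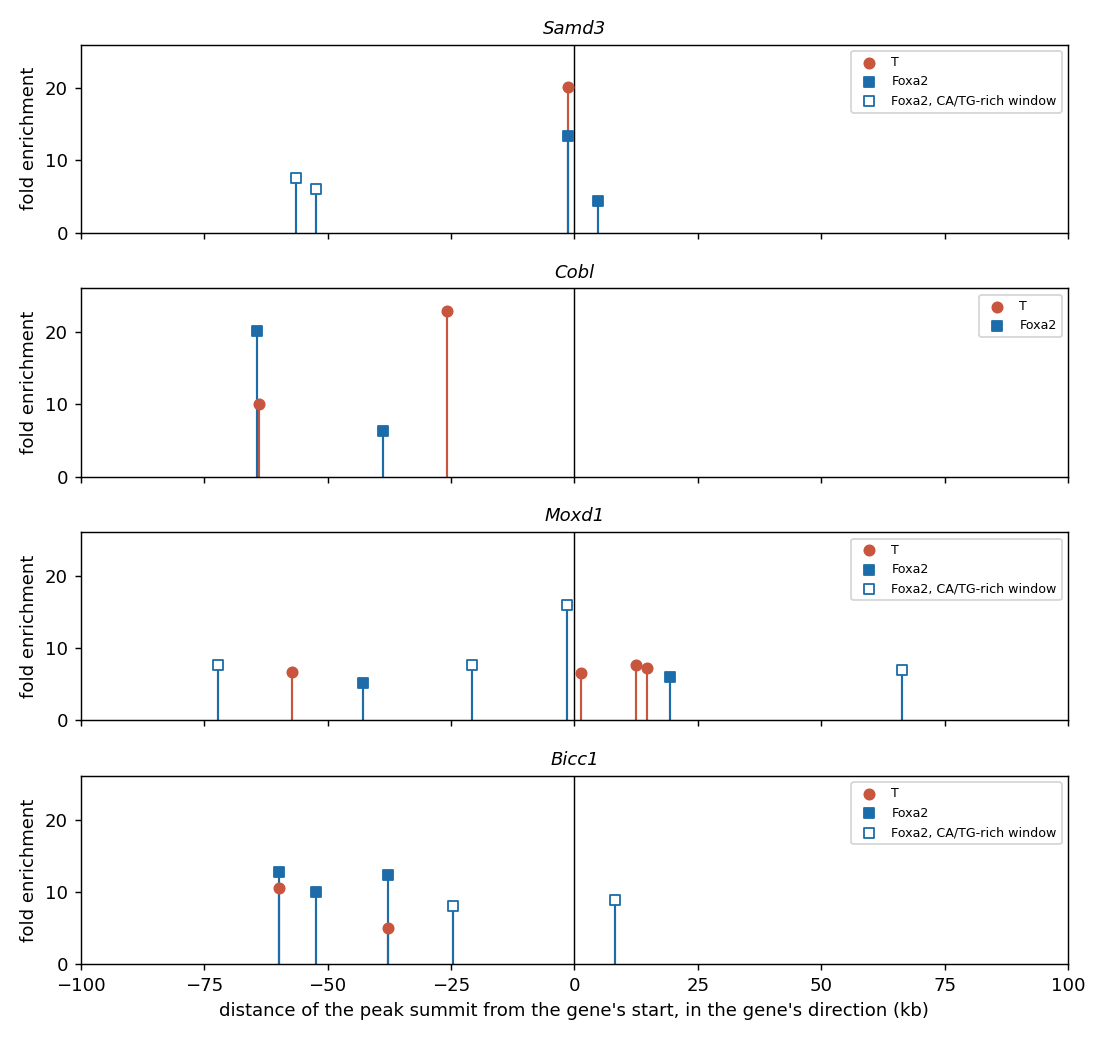
Each symbol is a T (red circle) or Foxa2 (blue square) peak placed by the distance of its summit from the gene's start in kb, upstream to the left, with fold enrichment on the vertical axis and open squares for windows at least 20% in CA or TG runs. T and Foxa2 stand together at 1.37 kb upstream of Samd3 and at 3 sites further upstream of Cobl and Bicc1, and those 4 Foxa2 squares are filled.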

How the data were processed

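Of 21 samples, 11 were used, namely 9 RNA-seq and 2 ChIP-seq libraries, and 10 (ATAC-seq and histone marks) were not analysed here. The 4 genes, the gene lists and the thresholds were chosen with earlier results of these data known. Named besides them are, by rule, the 3 genes most alike in pattern, the nearest protein-coding neighbours, 12 established notochord genes and relatives or partners with values at 5 FPKM or more, while Cobll1 and Moxd2 were named after their values were seen. Of the genes the rule names, 1 is not reported here.

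The authors deposited FPKM values from Cufflinks 2.2.1 after alignment to mm10 with TopHat2 2.1.1 and Bowtie 1.2.2 (versions from the submitters' processing notes), strand-aware, with duplicates removed by molecular identifiers. The FPKM values keep no read counts, so no interval could be made from them, and the read totals that the study lists for the embryonic libraries were not used. All value columns of the table were used (0 left out). Ratios were log2((FPKM + 1)/(FPKM + 1)), the background being genes with at least 5 FPKM in either library of a pair, or in NotoPs where trunk was set against NotoPs.

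By the column order of their format, the deposited peak files hold a score, a fold enrichment (ratio), −log10 p- and q-values and the summit's offset. The authors called the peaks with MACS3 3.0.0b1 at a q-value of 0.1 on 1 library per factor aligned with Bowtie 1.3.1. Summit distances used GENCODE gene starts. Sequences were read from the RefSeq GRCm38 genome, on which 0 peaks ran past a chromosome end. The fold rule was tested on simulated data, which checked its calculation and not its error in these single libraries. Python 3.11.15, numpy 2.4.6, pandas 2.3.3 and samtools 1.23.1 were used. Alternatives were other pseudocounts, rescaling, a filter on low values, other thresholds and references, and other peak windows.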

Additional observations from a re-analysis of the deposited data

Results flagged for a closer look

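From E8.5 to E9.5 Cobl was higher in the trunk notochord (log2 change of 0.94) and slightly lower in NotoPs (-0.13), a difference between the tissues of 1.07. It was set apart because the signs were opposite, and with 1 library in each condition the difference was not tested. Of 10231 genes with at least 5 FPKM in 1 or more of these 4 libraries, 47.5% had opposite signs.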

How the results depend on the processing

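The number of the 4 genes past each threshold kept within 1.5 times its value under every alternative run for expression, and 0 results changed sign. At 2-fold, 4 genes in place of 3 were higher in the trunk notochord than in MPs, and with 5 added to the FPKM 3 in place of 4 were higher in NotoPdiff than in NMPdiff. Counting peaks in the gene body and 5 kb around it left 2 of the 4 genes with a T peak and 1 in place of 3 with an overlapping pair, and 2 had a pair within 50 kb. Spearman in place of Pearson correlation named 0 of the 12 most alike genes again, and the cause was not tested. Of 64 ratios of single genes under other settings, 16 moved by over 1.5-fold, such as that of Samd3 over NMPdiff (log2 of 4.30, with 6.35 at 0.1 and 2.39 at 5 added). The 64 leave out ratios to MP libraries that listed the gene at 0, where the added value matters most. These are all 4 genes at E8.5, and Samd3 and Moxd1 at E9.5. The share of all genes past the bar moved too. For NotoPs over MPs it was 1.31%, and 3.98% with 0.1 added, 0.346% with 5 added, 2.47% over genes with at least 1 FPKM and 3.37% at 2-fold. For trunk over MPs it was 2.27%, with 4.75%, 0.588%, 4.12% and 5.2% in that order. For NotoPdiff over MPdiff it was 1.55%, with 6.66%, 0.367%, 3.02% and 4.34%, and for NotoPdiff over NMPdiff 1.31%, with 5.35%, 0.346%, 2.52% and 3.83%. The number of Foxa2 peaks near the genes was 17, and 10 within 50 kb, 35 within 250 kb, 9 in and around gene bodies and 9 without CA or TG runs, the last chosen after seeing the data. No paired analysis was possible because each condition has 1 library, so the groups compared share fewer than 2 replicate numbers. Cell types were compared within a stage. Since FPKM keep no counts, a value listed at 0 does not show absence.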
